A study of Rattus norvegicus with 6 samples.

Results

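Thyroid hormone, retinoid and PPAR receptors were examined in whole rat pituitaries kept as organ cultures, with 3 samples given 10 nM GnRH and 3 control samples, each on 1 array. The 10 genes were Thra and Thrb, the thyroid hormone receptors, Rara and Rarb, retinoic acid receptors, Rxra, Rxrb and Rxrg, the retinoid X receptors, and Ppara, Ppard and Pparg, the peroxisome proliferator-activated receptors. All probe sets whose array annotation gave only one of these symbols were taken, which made 17 of 31042 probe sets, and all 10 genes had at least 1. GnRH, gonadotropin-releasing hormone, comes from the hypothalamus and drives LH and FSH secretion by gonadotropes. The strain, sex and age of the rats and the length of treatment are not stated in the labels, which also do not say that samples of a group came from separate cultures, so the spread between them may be technical.

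These receptors are transcription factors that sit on DNA and change their activity when a small lipophilic molecule binds them. Thyroid hormone receptors bind T3, retinoic acid receptors bind all-trans retinoic acid, and PPARs bind fatty acids and their derivatives. All of them work mainly as pairs with a retinoid X receptor, and they recruit coactivators when ligand is bound; thyroid hormone and retinoic acid receptors hold corepressors when it is not. In the pituitary, thyroid hormone receptor beta is known for carrying the negative feedback of thyroid hormone on the thyrotropin subunit genes.

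Rarb is itself a classical target of retinoic acid through a response element at its promoter, and Thrb is the receptor with the widest gap between the controls. For that reason the promoter windows of these genes are shown, 300 bases each from RefSeq on the GRCr8 build, 5′ to 3′ on the strand of the gene. The Rarb window lies at chr15:11336142-11336441 on the plus strand, and the Thrb window at chr15:10461397-10461696 on the minus strand. Both lie inside the span of their gene, so neither covers every transcript start of its gene. Capitals mark the retinoic acid response element in Rarb and GC boxes in Thrb.
Rarb: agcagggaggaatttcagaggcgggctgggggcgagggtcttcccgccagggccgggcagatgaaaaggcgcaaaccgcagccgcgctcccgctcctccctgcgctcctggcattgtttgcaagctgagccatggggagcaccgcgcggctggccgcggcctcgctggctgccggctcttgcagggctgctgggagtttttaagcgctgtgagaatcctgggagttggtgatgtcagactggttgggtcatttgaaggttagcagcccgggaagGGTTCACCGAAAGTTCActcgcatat
Thrb: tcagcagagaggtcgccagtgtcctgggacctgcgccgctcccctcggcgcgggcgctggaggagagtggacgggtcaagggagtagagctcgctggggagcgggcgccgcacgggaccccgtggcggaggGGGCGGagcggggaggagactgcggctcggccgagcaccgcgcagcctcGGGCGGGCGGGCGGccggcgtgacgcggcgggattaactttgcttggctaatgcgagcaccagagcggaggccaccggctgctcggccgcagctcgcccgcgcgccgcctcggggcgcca
The element in Rarb matches GGTTCANNNNNAGTTCA at bases 275 to 291 of its window, a pair of hexamers with 5 bases between them. This motif, searched on both strands, was found in 3 of 33469 RefSeq promoter windows of the same length, or 0.00896%. Its hexamers were spelled from the known Rarb element, so the match in Rarb was fixed in advance. The share is that of these exact letters, not of retinoic acid response elements in general. The GC box GGGCGG had 4 matches on the given strand of the Thrb window, 3 of them in an overlapping run. It was found in 7 of the 11 windows of the 9 receptor genes that had one, against 33.1% of all windows on either strand. The general nuclear receptor hexamer AGGTCA was in 0 of these 11 windows, against 16.2% of all windows, which says only that these letters are not in these windows.

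The controls were not alike, and this bears most of all on Thrb. Xist, a transcript of the inactive X chromosome, gave log2 intensities of 9.73, 9.16 and 9.49 with GnRH, against 3.91, 3.66 and 9.77 in controls 1, 2 and 3. The mean over all Xist probe sets gave 7.16, 7.14 and 7.16 with GnRH, against 4.12, 3.98 and 7.34 in controls. The labels give no sex to set beside these levels. Control 3 shared the Xist level of the GnRH arrays while controls 1 and 2 did not. Receptor results that rest on this array are therefore given with all arrays, without control 3, and against control 3 as the lone control. For other genes the comparison with control 3 alone is not always given, and array values, where printed, show where control 3 lay. With control 3 as the lone control, the spread was taken from the GnRH arrays. The last fit is a comparison with a single sample. Without control 3, every GnRH array had the high Xist level and both controls the low one. In that fit a difference with GnRH and a difference along the Xist split cannot be told apart. Gnrhr, the GnRH receptor, was higher with GnRH by 1.12 ± 0.17 (SE) on its brighter probe set (limma adjusted p = 0.0215). Median intensities ran from 64.5 to 67.0 on the 6 arrays.

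No receptor probe set passed the test between GnRH and control cultures. By limma with Benjamini-Hochberg adjustment over all probe sets, 0 of 17 had an adjusted p under 0.05, where 0.464% of all probe sets did. The members nearest to the threshold were Ppard and Thrb, whose probe sets reached log2 differences (GnRH minus control) of 0.59 and 0.61, or 1.5-fold. At an unadjusted p under 0.05 there were 6 of 17, all higher with GnRH, against 12.3% of all probe sets. They stood for only 3 genes, Thrb, Ppard and Rxrb, and probe sets of a gene are not independent. At an adjusted p under 0.10 there was 1 of 17, Ppard, against 1.1% of all. Ppard was also the 1 call with robust variances, where 0.609% of all probe sets passed, while array weights, which rest mainly on control 2 among controls, called 5 of 17 against 9.73%. The median difference was 0.18 over the 17 probe sets, and 0.093 over the brightest probe set of each gene, against -0.025 over all probe sets. The SE of the difference ran from 0.087 to 0.19 over the 17 probe sets, which limits the size of shift that 3 arrays a group could show. In whole organs, a change in the share of cells that hold a transcript and a change in the transcript per cell cannot be told apart.

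**Figure D1:**
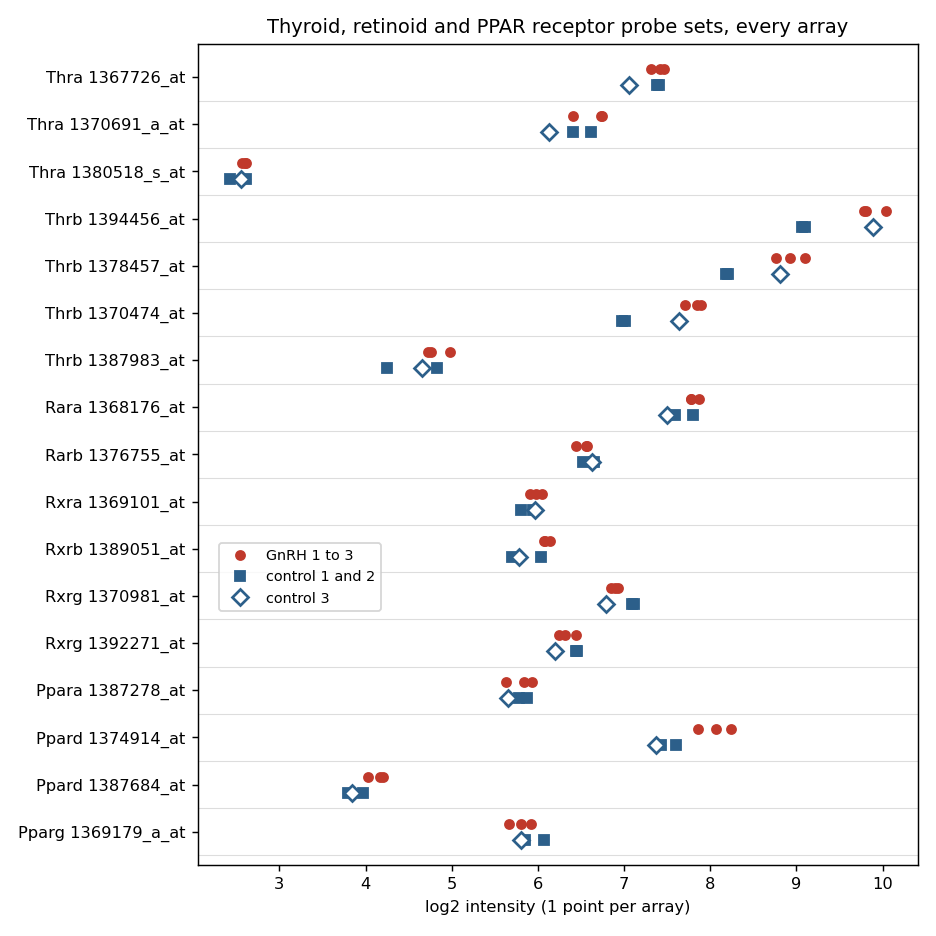
Log2 intensity of the 17 receptor probe sets on each array (horizontal axis), with GnRH arrays as red circles above the control arrays of the same row, controls 1 and 2 as blue squares and control 3 as an open diamond. The groups do not touch for both Ppard probe sets, for Rxrb and for Thrb 1370474_at. For 3 of the 4 Thrb probe sets control 3 lies near the GnRH arrays while controls 1 and 2 both lie lower. Brightness is not comparable between rows, since probe sets differ in their response.

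Thrb, thyroid hormone receptor beta, had 4 probe sets. Which transcript forms of Thrb each of them matches could not be settled, and the same holds for Thra. On 1370474_at its log2 intensities were 7.70, 7.89 and 7.85 with GnRH, against 6.97, 7.01 and 7.64 in controls. All GnRH values lay above all controls, with control 3 close below them. The difference was 0.61 ± 0.16 (SE, n = 3 a group; limma adjusted p = 0.159), a 1.52-fold ratio. Probe set 1378457_at had 8.77, 8.92 and 9.10 with GnRH, against 8.21, 8.19 and 8.81 in controls. Here control 3 fell among the GnRH arrays, and the difference was 0.53 ± 0.16 (limma adjusted p = 0.233). Probe set 1394456_at had 9.78, 9.81 and 10.04 with GnRH, against 9.06, 9.10 and 9.89 in controls. Control 3 again lay among the GnRH arrays, above 2 of them, and the difference was 0.52 ± 0.19 (limma adjusted p = 0.311). The last and dimmest, 1387983_at, had 4.73, 4.98 and 4.76 with GnRH, against 4.25, 4.83 and 4.66 in controls. Its groups overlapped, control 2 lay above 2 GnRH arrays, and the difference was 0.24 ± 0.14 (limma adjusted p = 0.522). The mean of the 4 probe sets differed by 0.48 ± 0.15 (limma adjusted p = 0.223 over 14217 genes).

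The size of the Thrb difference depended on which controls were used. Without control 3, the 3 brighter probe sets were higher with GnRH by 0.82 ± 0.091, 0.73 ± 0.11 and 0.79 ± 0.10 and passed the test (limma adjusted p = 0.000870, 0.00345 and 0.00184 for 1370474_at, 1378457_at and 1394456_at). In that fit 7.44% of all probe sets passed, and 4.95% of all probe sets passed and were higher with GnRH. Against control 3 alone, the same probe sets gave 0.18, 0.11 and -0.016, with 95% intervals of -0.095 to 0.45, -0.20 to 0.43 and -0.31 to 0.28 (limma adjusted p = 0.671, 0.852 and 0.985). Control 3 stood above the mean of controls 1 and 2 by 0.65, 0.62 and 0.81 on these probe sets. A gap at least this high was found in 1.49%, 1.68% and 0.718% of all probe sets. On these 3 probe sets, but not on the dimmest, Thrb thus divided the 6 arrays in the way that Xist did. Without control 3 that division and GnRH treatment cannot be told apart. The part of the division in the difference with all arrays was not tested.

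**Figure D2:**
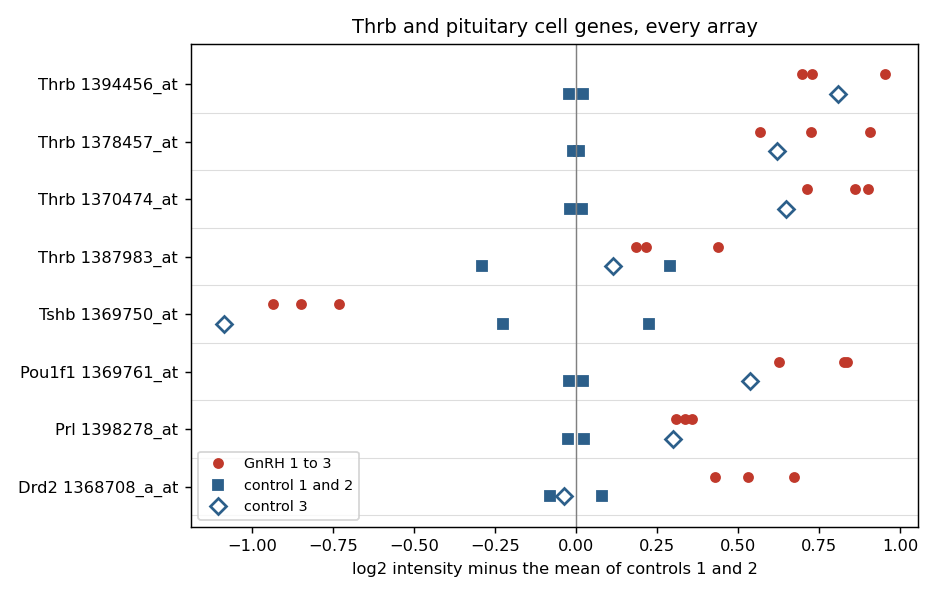
Log2 intensity minus the mean of controls 1 and 2 (horizontal axis) for the 4 Thrb probe sets and for Tshb, Pou1f1, Prl and Drd2, with GnRH arrays as red circles, controls 1 and 2 as blue squares and control 3 as an open diamond. Control 3 sits with the GnRH arrays, apart from controls 1 and 2, for Thrb on the 3 brighter probe sets, for Prl and for Tshb. It sits with the other controls for Drd2.

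Some transcripts of pituitary cell types divided the arrays in the same way and others did not. Tshb, the thyrotropin beta subunit that thyroid hormone represses, had log2 intensities of 9.95, 10.06 and 9.86 with GnRH, against 11.02, 10.57 and 9.71 in controls. Control 3 was here the lowest array and controls 1 and 2 the highest. The difference was -0.48 ± 0.25 with all arrays (limma adjusted p = 0.483) and -0.84 ± 0.13 without control 3 (limma adjusted p = 0.00450). From control 3 alone Tshb differed by 0.25, in the other direction. Trhr, the receptor for thyrotropin-releasing hormone, had 6.82, 7.26 and 6.79 with GnRH, against 6.52, 6.20 and 7.02 in controls. Its order was that of Thrb, with control 3 among the GnRH arrays. The Trhr difference was 0.38 ± 0.19 with all arrays (limma adjusted p = 0.463) and 0.60 ± 0.15 without control 3 (limma adjusted p = 0.0351). From control 3 alone Trhr differed by -0.062. Pou1f1, the transcription factor of somatotropes, lactotropes and thyrotropes, had 8.0, 8.20 and 8.21 with GnRH, against 7.35, 7.39 and 7.91 in controls, a difference of 0.58 ± 0.14 (limma adjusted p = 0.132). All 4 lactotrope markers were higher with GnRH, and Drd2, the dopamine receptor, was the one that passed (0.56 ± 0.10, limma adjusted p = 0.0399). For Drd2 the log2 intensities were 8.31, 8.46 and 8.21 with GnRH, against 7.87, 7.70 and 7.75 in controls, so control 3 lay with the other controls. Their summed linear intensity was 18937 to 19644 with GnRH, against 14937, 15449 and 18661 in controls 1, 2 and 3. Of 7 gonadotrope markers, Gnrhr and Nr5a1 rose and 5 did not pass, with a summed intensity of 14981 to 18426 with GnRH, against 13294, 13964 and 16865 in controls 1, 2 and 3. Gnrhr had 8.78, 9.45 and 8.94 with GnRH, against 7.85, 7.78 and 8.16 in controls, and here too all controls lay below the GnRH arrays.

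Of 6 thyrotrope markers 0 passed with all arrays, and their sum was 9583 to 11285 with GnRH, against 9618 to 10355 in controls. This sum of linear intensities rests mainly on Cga, also a gonadotrope marker. Cga had log2 intensities of 12.84 to 13.27, far above Tshb at 9.71 to 11.02. The lactotrope sum likewise rests mainly on Prl, at 13.83 to 14.21. Such sums follow their brightest genes and do not measure the share of a cell type. Without control 3, 3 of the 6 passed, Trhr higher and Tshb and Tshr, the thyrotropin receptor, lower (Tshr by -0.38 ± 0.10, limma adjusted p = 0.0464), and against control 3 alone 0 passed. In 6 fits with 1 array left out, Gnrhr passed in 2, and Nr5a1 and Drd2 in 1, the fit without control 3. Of the other marker lists, 0 of 3 somatotrope, 0 of 4 corticotrope and melanotrope, 0 of 5 folliculostellate and stem-like, 0 of 5 endothelial, 0 of 6 macrophage and leukocyte and 0 of 5 fibroblast and pericyte markers passed with all arrays. Dcn, decorin of the connective tissue matrix, had 7.95, 8.01 and 7.56 with GnRH, against 8.68, 8.70 and 8.04 in controls, with control 3 nearest to the GnRH arrays. Its difference was -0.63 ± 0.18 with all arrays (limma adjusted p = 0.194) and -0.85 ± 0.13 without control 3, where it passed (limma adjusted p = 0.00412). Lum, lumican of the same matrix, had a difference of -0.54 ± 0.18 with all arrays (limma adjusted p = 0.268), with no overlap between the groups. The summed intensity of the fibroblast and pericyte markers was 585.8 to 791.3 with GnRH, against 848.5, 901.7 and 672.1 in controls 1, 2 and 3. Without control 3 the calls were 3 of 7 gonadotrope, 3 of 4 lactotrope, 1 of 3 somatotrope (Pou1f1, also a lactotrope marker) and 1 of 5 fibroblast and pericyte markers, and 0 in the other lists just named, against the 7.44% of all probe sets. Against control 3 alone 0 passed in every marker list. The array gives no detection call, so no marker could be called absent, and the part of cell type makeup in the Thrb values was not tested.

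Thra, thyroid hormone receptor alpha, showed no difference beyond the spread of the arrays. Probe set 1367726_at had log2 intensities of 7.46, 7.31 and 7.42 with GnRH, against 7.41, 7.39 and 7.06 in controls. Control 3 was the lowest array, the others were close together, and the difference was 0.11 ± 0.11 (95% interval -0.13 to 0.36; limma adjusted p = 0.710). Probe set 1370691_a_at had 6.73, 6.74 and 6.41 with GnRH, against 6.41, 6.61 and 6.13 in controls, with control 3 again lowest. Its difference was 0.24 ± 0.14 (limma adjusted p = 0.507). On these probe sets control 3 was lower than the mean of controls 1 and 2, by -0.34 and -0.38, where Thrb was higher. Without control 3 their differences were 0.00014 and 0.11, and against control 3 alone 0.34 and 0.49, in no case past the threshold. The third, 1380518_s_at, a type of probe set that can match several transcripts, lay near the floor of the arrays, with only 0.135% of probe sets as dim, and had 2.57 to 2.61 with GnRH and 2.43 to 2.61 in controls.

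Ppard, the fatty acid receptor PPAR delta, was the member nearest to the threshold, and its difference changed little with the choice of controls. Its brighter probe set, 1374914_at, had log2 intensities of 8.24, 8.06 and 7.86 with GnRH, against 7.60, 7.43 and 7.38 in controls. Every GnRH array lay above every control, and control 3 lay just below the other controls. The difference was 0.59 ± 0.11 (SE; 95% interval 0.33 to 0.84), a 1.5-fold ratio, with a limma adjusted p of 0.0613. Only 1.27% of all probe sets had a difference at least as large in either direction. Without control 3 it was 0.54 ± 0.12 (limma adjusted p = 0.0223), and against control 3 alone 0.68 ± 0.15 (limma adjusted p = 0.0884). The dimmer probe set, 1387684_at, had 4.02, 4.17 and 4.21 with GnRH, against 3.80, 3.97 and 3.84 in controls. The groups did not overlap here either, and the difference was 0.26 ± 0.092 (limma adjusted p = 0.291). With both probe sets averaged, Ppard was higher by 0.42 ± 0.074 and passed among 14217 genes (limma adjusted p = 0.0479), where 0.605% of genes passed.

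The other PPARs stayed within the spread of the arrays. Ppara, the receptor that drives fatty acid oxidation in liver, had 5.84, 5.93 and 5.63 with GnRH, against 5.88, 5.79 and 5.65 in controls. Its groups overlapped fully, with a difference of 0.032 ± 0.10 (limma adjusted p = 0.927). Pparg, the regulator of fat cell formation, had 5.66, 5.92 and 5.81 with GnRH, against 6.07, 5.85 and 5.80 in controls. Control 1 was the highest array, and the difference was -0.11 ± 0.11 (95% interval -0.35 to 0.12; limma adjusted p = 0.704). Adipocyte markers, which would mark fat attached to the glands, had 0 of 5 past the test and a summed intensity of 206.7 to 227.4 with GnRH, against 207.3 to 243.6 in controls.

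Among the retinoid X receptors, the shared partners, only Rxrb had groups that did not overlap. Rxrb had log2 intensities of 6.08, 6.14 and 6.07 with GnRH, against 6.04, 5.70 and 5.78 in controls. Control 1 lay just below the GnRH arrays and the other controls further down. The difference was 0.26 ± 0.10 (limma adjusted p = 0.348), with 0.23 without control 3 and 0.32 against it alone. Rxra had 5.97, 5.91 and 6.04 with GnRH, against 5.94, 5.80 and 5.96 in controls, overlapping groups with a difference of 0.073 ± 0.089 (limma adjusted p = 0.772). Rxrg, the form with the narrowest tissue range, had 6.93, 6.90 and 6.85 with GnRH on 1370981_at, against 7.12, 7.09 and 6.79 in controls. Controls 1 and 2 lay above the GnRH arrays and control 3 below them, and the difference was -0.11 ± 0.10 (limma adjusted p = 0.709). It was -0.22 without control 3 and 0.10 against control 3 alone, neither past the threshold (limma adjusted p = 0.140 and 0.817). The other Rxrg probe set, 1392271_at, had 6.44, 6.24 and 6.32 with GnRH, against 6.44, 6.46 and 6.20 in controls, a difference of -0.033 ± 0.10.

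Neither retinoic acid receptor differed beyond the spread of the arrays. Rara, the widely expressed alpha form, had 7.87, 7.78 and 7.77 with GnRH, against 7.8, 7.59 and 7.50 in controls. Control 1 lay among the GnRH arrays and the other controls below them, with a difference of 0.18 ± 0.10 (limma adjusted p = 0.506). Rarb, the target gene with the response element in its promoter window, had 6.57, 6.56 and 6.44 with GnRH, against 6.52, 6.65 and 6.62 in controls. The groups overlapped and the difference was -0.071 ± 0.088 (95% interval -0.27 to 0.12; limma adjusted p = 0.777). Over all members, groups did not overlap in 4 of 17 probe sets, 4 of them higher with GnRH, against 16.7% of all probe sets in either direction and 7.06% higher. An absolute difference of 0.5 or more was found in 4 of 17, 3 of them from Thrb, against 2.06% of all probe sets.

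**Figure D3:**
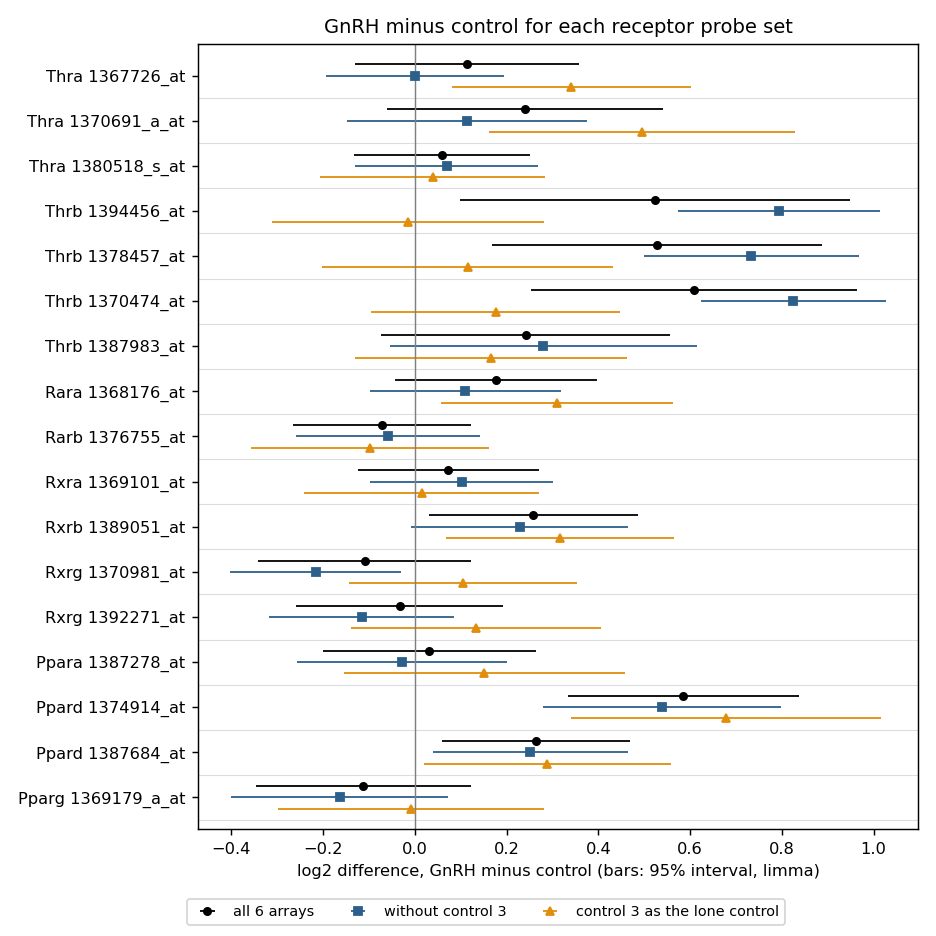
Log2 difference, GnRH minus control (horizontal axis), with its 95% limma interval for each receptor probe set, from all 6 arrays (black circles), without control 3 (blue squares) and with control 3 as the lone control (orange triangles). The 3 estimates lie close together for Ppard, between 0.54 and 0.68 on 1374914_at, and far apart for Thrb, between 0.18 and 0.82 on 1370474_at.

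Genes that work with the receptors were read from 5 lists, with the brightest probe set of each gene and 111 of 122 listed genes measured. With all arrays 0 of 111 measured genes passed in either direction (limma, Benjamini-Hochberg over all probe sets), where 0.464% of all probe sets did. At an unadjusted limma p under 0.05 there were 12 higher and 9 lower genes, against 12.3% of all probe sets in either direction. Without control 3, 6 were higher and 4 lower past the threshold, and against control 3 alone 2 were higher and 0 lower, where 7.44% and 0.854% of all probe sets passed.

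Of 9 other nuclear receptors that pair with retinoid X receptors, 6 had a difference above 0 and the median was 0.055, against -0.0089 over all named genes. Nr4a1, an orphan receptor induced early by many stimuli, had 9.62, 9.54 and 9.82 with GnRH, against 9.28, 9.23 and 8.44 in controls. Control 3 was far below the other controls, and the difference was 0.67 ± 0.19 (limma adjusted p = 0.207). It passed both without control 3 (0.40, limma adjusted p = 0.0391) and against control 3 alone (1.22, limma adjusted p = 0.00631). Nr4a2, its relative, had 6.80, 7.06 and 6.75 with GnRH, against 6.0, 6.11 and 6.77 in controls. As for Thrb, control 3 lay at the level of the GnRH arrays, and the difference of 0.58 ± 0.18 became 0.82 without it (limma adjusted p = 0.234 and 0.00219). Nr1i3, a xenobiotic sensor of liver, was dim and had a difference of -0.38 ± 0.11 (limma adjusted p = 0.215), which passed without control 3 (-0.45, limma adjusted p = 0.0322). Rarg, the third retinoic acid receptor, had 6.16, 6.22 and 6.03 with GnRH, against 5.98, 5.81 and 5.61 in controls, a difference of 0.33 ± 0.11 (limma adjusted p = 0.266). All 3 GnRH arrays lay above the controls for Rarg.

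Corepressors and coactivators, which join the receptors to chromatin enzymes, had a median of 0.032 over 20 genes, and 0 passed with all arrays, without control 3 or against it alone. The smallest p-values were those of Carm1, an arginine methyltransferase (0.32 ± 0.12), Pprc1, a relative of PGC-1 (0.25 ± 0.10), and Nrip1, a corepressor (0.20 ± 0.10), with limma adjusted p-values of 0.311, 0.360 and 0.447. Ncor1, the corepressor of unliganded thyroid hormone receptors, had 8.02, 7.97 and 7.97 with GnRH, against 7.93, 7.87 and 8.03 in controls, which overlapped.

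Genes of thyroid hormone transport, activation and response had a median of -0.048 over 22 genes. Klf9, a transcription factor induced by thyroid hormone and by other nuclear receptor ligands, had 9.10, 9.0 and 9.0 with GnRH, against 8.63, 8.77 and 8.37 in controls. The groups did not overlap and the difference was 0.44 ± 0.11 (limma adjusted p = 0.133). It passed both without control 3 (0.34, limma adjusted p = 0.0473) and against control 3 alone (0.66, limma adjusted p = 0.0367). Slco1c1, a thyroxine transporter, and Dio3, the deiodinase that inactivates thyroid hormone, had differences of -0.42 ± 0.16 and -0.31 ± 0.12 (limma adjusted p = 0.315 and 0.326). Gh1, growth hormone, a thyroid hormone target in rat somatotropes, had 14.18, 14.09 and 14.17 with GnRH, against 14.25, 14.22 and 14.20 in controls, a difference of -0.080 ± 0.082 (limma adjusted p = 0.729).

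In the retinoid list, 17 of 22 genes had a difference below 0 with all arrays and the median was -0.093. Over all named genes 47.6% had a difference above 0 and the median was -0.0089. The lean of the list varied with the controls, with 20 of 22 below 0 and a median of -0.149 without control 3. Against control 3 alone 12 of 22 were below 0, with a median of -0.013. Crabp2, which carries retinoic acid to its receptor, had 6.91, 6.53 and 6.77 with GnRH, against 6.95, 7.10 and 7.33 in controls. The groups came close without overlapping, with a difference of -0.39 ± 0.13 (limma adjusted p = 0.253). Rbp4, the retinol carrier of blood, had 6.84, 6.90 and 6.82 with GnRH, against 7.60, 7.53 and 6.81 in controls. Control 3 was at the level of the GnRH arrays, and the difference was -0.46 ± 0.18 with all arrays and -0.71 without control 3 (limma adjusted p = 0.329 and 0.00140). Aldh1a3, a retinaldehyde dehydrogenase that makes retinoic acid, had a difference of -0.47 ± 0.26 with widely spread controls (limma adjusted p = 0.50).

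Among 38 PPAR target genes of fatty acid handling, 18 had a difference above 0 and 20 below, with a median of -0.0035. Pdk4, the kinase that turns off pyruvate dehydrogenase, had 7.79, 7.48 and 7.97 with GnRH, against 7.35, 7.17 and 7.24 in controls. The groups did not overlap and the difference was 0.50 ± 0.12 (limma adjusted p = 0.138, and 0.0498 without control 3). Ucp2, a mitochondrial carrier, and Acot1, an acyl-CoA thioesterase, had differences of 0.29 ± 0.089 and 0.56 ± 0.17 (limma adjusted p = 0.223 and 0.225). Acot1 was dim, with GnRH 2 at 4.15 just above control 1 at 4.11. The 3 genes so far were all higher with GnRH, but the list went both ways. At an unadjusted limma p under 0.05, 5 of its genes were higher and 4 lower, against 12.3% of all probe sets in either direction. Slc25a20, the mitochondrial carnitine-acylcarnitine carrier, and Scd, a stearoyl-CoA desaturase, passed without control 3 with differences of 0.51 and -0.36 (limma adjusted p = 0.0123 and 0.0372).

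**Figure D4:**
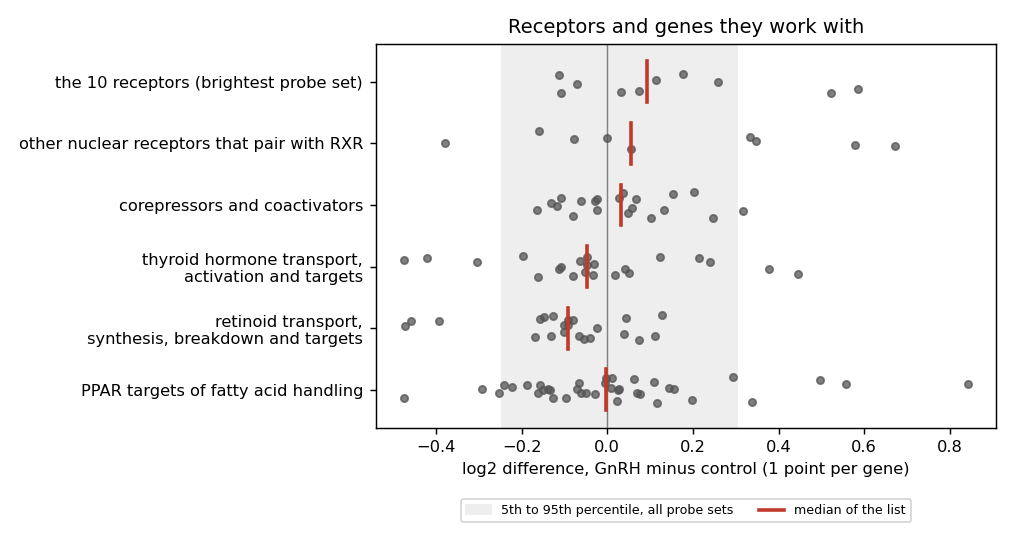
Log2 difference, GnRH minus control (horizontal axis), of the 10 receptors by their brightest probe set and of the genes of 5 related lists, 1 point per gene, with list medians as red bars and the range from the 5th to the 95th percentile of all probe sets, -0.25 to 0.30, shaded. Medians run from -0.093 in the retinoid list to 0.093 in the receptors, and Ppard and Thrb are the receptors to the right of the shaded range.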

How the data were processed

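Transcripts were measured on 1 array per sample in 3 GnRH and 3 control samples, grouped by title. Values are deposited intensities on a linear scale; per the submitters' processing notes RMA made them, with no software named. Log2 values were computed from the deposited intensities with no pseudocount. The table held 31042 probe sets and no detection calls. Gene names are those of the array annotation, brought up to date by gene identifier with a GRCr8 table (20826 probe sets with 1 symbol, 436 with several and unnamed, 9780 not listed). The comparison used limma 3.58.1 under R 4.3.3 (lmFit, eBayes; 2-sided, no covariate, no filter), with Benjamini-Hochberg over all probe sets and a threshold of 0.05. In simulated data of 31042 probe sets, 34 of 50 changes of 0.58 and 48 of 50 of 1.00 (log2) were recovered. The simulated noise was independent between arrays and probe sets, with no split among the controls, so recovery in the real arrays may be lower. Depth does not apply to arrays, whose number limits precision. Alternatives were other normalizations, a filter on dim probe sets, other variance models, array weights, a replicate block, each array left out, controls 1 and 2 left out, a threshold of 0.10 and gene means. Receptors and lists were chosen with earlier results of these data known. Named genes were all receptors, and up to 3 of each related list with the smallest p-values; Nr4a1, Nr1i3 and Nr4a2 came by that rule, while Rarg, Ncor1, Tshb, Gh1, Slc25a20, Scd and the marker genes were added after their values were seen.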

Additional observations from a re-analysis of the deposited data

How the results depend on the processing

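The count of receptor probe sets past the threshold was 0 with all arrays and stayed 0 with median centring, quantile normalization, cyclic loess, dim probe sets left out and an intensity trend. It was 1 (Ppard 1374914_at) with robust variances, with the replicate block and at an adjusted p under 0.10, 5 with array weights (Ppard, Rxrb and 3 of Thrb), 0 against control 3 alone, and 0 to 4 with 1 array left out, the 4 being without control 3. Over all probe sets, where 144 passed, the count was 90 with quantile normalization, 93 with cyclic loess, 3020 with array weights, 215 with the replicate block, 265 against control 3 alone, 341 at an adjusted p under 0.10 and 20 to 2309 with 1 array left out. Dcn passed with the replicate block and with array weights (limma adjusted p = 0.0280 and 0.00475). Of the markers called with all arrays, Gnrhr also passed with median centring, quantile normalization and cyclic loess. Drd2 passed with median centring but not with the other normalizations, and Nr5a1 did not pass under any of them. Of the related genes, 15 passed with array weights, 2 against control 3 alone and 0 to 10 with 1 array left out. The lowest array weight, 0.298, was that of control 3 and the highest, 2.72, that of control 2. The difference of Ppard 1374914_at ran from 0.49 to 0.68 over 15 alternatives, with limma adjusted p from 0.00461 to 0.267, the highest without GnRH 2. Deviations of same-numbered samples had correlations of 0.16, -0.049 and 0.16, against -0.23 to 0.18 for other pairs. The numbers were not taken as pairs in the main fit, but these values do not show that shared variation is absent. With the replicate block, Thrb 1370474_at, 1378457_at and 1394456_at had limma adjusted p = 0.0883, 0.0747 and 0.114. The causes of these changes were not tested. Dim probe sets are limited by background, which the values do not give.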
